A study of Mus musculus with 12 samples.

Results

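The interferon regulatory factors are a family of DNA-binding transcription factors, and 8 of their genes were followed here: Irf1, Irf2, Irf3, Irf4, Irf5, Irf7, Irf8 and Irf9. They were taken by gene name from the scanner output, where Irf9 carries its older name Isgf3g and the others the names given here, and they have 12 of the 41174 probes on the array. Of the 8 genes, 6 were among the 15061 genes tested, and Irf4 and Irf5 were not, because their probes were too dim. The cells were PUER, a mouse myeloid line that lacks PU.1 (the product of Spi1) and carries instead a fusion of PU.1 with the hormone-binding part of the estrogen receptor, grown with IL-3, a cytokine for blood progenitors. 4-hydroxytamoxifen (4-OHT) switches the fusion on. There were 4 groups of 3 arrays, each with replicates A, B and C: cells with a retroviral short hairpin RNA against Hnrnpa0 (shRNA cells) after 24 h in 2 nM 4-OHT, shRNA cells before 4-OHT, cells with a control retroviral vector (control cells) after 24 h in 2 nM 4-OHT, and control cells before 4-OHT. All 4 groups were sorted on the GFP of the vector, and the study's text tells of parallel experiments with separate clones for each vector. The labels name only 1 hairpin, so clone and off-target effects cannot be told apart from the effect of losing Hnrnpa0. No array is labelled as cells kept in vehicle, so time in culture cannot be told apart from the action of 4-OHT.

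Irf1 and Irf2 recognise the same elements, Irf1 as an activator induced by interferons and Irf2 mostly as its competitor. Irf3 and Irf7 are latent in the cytoplasm until kinases downstream of nucleic acid sensors phosphorylate them, and they then switch on type I interferon genes; Irf3 is present in most cells and Irf7 is itself induced by interferon. Irf9 is the DNA-binding subunit of ISGF3, the complex that carries the type I interferon signal to interferon-stimulated genes. Irf8 and Irf4 are restricted largely to blood cells and bind composite sites together with PU.1; Irf8 favours monocytes over granulocytes, and Irf4 acts in lymphocytes and dendritic cells. Irf5 drives inflammatory cytokine genes in macrophages.

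The promoters of the 3 members that moved together under 4-OHT (Irf7, Irf8 and Irf9), and that of Irf2, which alone holds an interferon element among the windows searched, are shown here because the results turn on these genes. The 8 genes have 11 promoter windows in the RefSeq table (build GRCm38.p6), each running from 250 bases before a transcript start to 50 after it, and the first window of each gene is printed 5′ to 3′. Capitals mark matches to 4 short motifs searched on both strands: the interferon-stimulated response element GAAANNGAAA bound by ISGF3 and by the family, the gamma-activated site TTCNNNGAA bound by STAT dimers, the Ets-IRF composite element GGAANNGAAA bound by PU.1 with Irf4 or Irf8, and the PU box GAGGAA bound by PU.1.

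Irf7, chr7:141266375-141266674, minus strand: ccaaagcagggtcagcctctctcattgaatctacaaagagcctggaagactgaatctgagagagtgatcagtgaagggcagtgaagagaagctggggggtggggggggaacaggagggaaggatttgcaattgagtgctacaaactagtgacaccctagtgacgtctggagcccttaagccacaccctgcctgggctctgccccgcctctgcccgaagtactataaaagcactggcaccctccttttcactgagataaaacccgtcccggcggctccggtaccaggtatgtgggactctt

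Irf8, chr8:120736108-120736407, plus strand: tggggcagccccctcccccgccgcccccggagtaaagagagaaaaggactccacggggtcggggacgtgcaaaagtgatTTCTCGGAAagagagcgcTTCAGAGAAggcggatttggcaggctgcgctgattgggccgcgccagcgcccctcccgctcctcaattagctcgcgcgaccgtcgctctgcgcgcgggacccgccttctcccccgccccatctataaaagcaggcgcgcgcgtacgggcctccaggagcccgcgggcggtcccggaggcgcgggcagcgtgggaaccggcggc

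Irf9, chr14:55603735-55604034, plus strand: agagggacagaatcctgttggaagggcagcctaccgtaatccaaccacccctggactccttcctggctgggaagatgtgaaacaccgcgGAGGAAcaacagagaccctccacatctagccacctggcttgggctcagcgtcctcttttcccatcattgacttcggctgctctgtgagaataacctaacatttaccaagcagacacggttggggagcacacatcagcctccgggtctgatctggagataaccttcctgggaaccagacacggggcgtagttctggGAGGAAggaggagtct

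Irf2, chr8:46739495-46739794, plus strand: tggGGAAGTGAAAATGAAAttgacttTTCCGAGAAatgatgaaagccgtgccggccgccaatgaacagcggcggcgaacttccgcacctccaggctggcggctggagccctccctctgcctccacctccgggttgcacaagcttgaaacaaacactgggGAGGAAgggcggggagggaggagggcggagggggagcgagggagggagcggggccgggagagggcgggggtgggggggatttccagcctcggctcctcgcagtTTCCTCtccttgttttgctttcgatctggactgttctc

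Over the 32851 windows of the table, 3.44% held the interferon-stimulated element, 8.3% the gamma-activated site, 2.72% the composite element and 28.3% the PU box. The Irf8 window held a pair of gamma-activated sites, at -171 to -163 and -153 to -145 relative to the start. The printed Irf9 window held PU boxes at -161 to -156 and 35 to 40, and the second Irf9 window, not printed, held a PU box at -160 to -155. The Irf7 window and the second windows of Irf1 and Irf8 held none of the 4 motifs. In the Irf2 window the interferon-stimulated element at -241 to -232 overlapped the composite element at -247 to -238, and it was the only window of the 11 with either. A gamma-activated site at -224 to -216 and PU boxes at -91 to -86 and 13 to 18 lay in the same window. The Irf1 window, not printed, held a gamma-activated site at -90 to -82, and that of Irf4 a PU box at -19 to -14; those of Irf3 and Irf5 held none of the 4. A match is a run of letters in the window, not a measured binding site.

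Levels were read with 60-base probes whose positions the array design gives on mouse build mm7. The only Irf7 probe (A_51_P421876, chr7:137682028-137682378) is shown because it is the only reading of Irf7; its 351-base span is longer than its 60 bases, so it bridges an intron.

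Irf7 probe: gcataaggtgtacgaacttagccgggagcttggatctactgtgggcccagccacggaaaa

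The dimmer Irf9 probe (A_52_P176013, chr14:50473491-50473701, a 211-base span) also bridges an intron and is shown as the second reading of Irf9.

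Irf9 dimmer probe: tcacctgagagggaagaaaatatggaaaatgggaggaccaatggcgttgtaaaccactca

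The tested probes of the other members are A_51_P146103 for Irf1 (chr11:53733970-53734029), A_51_P316523 for Irf2 (chr8:45625001-45625060), A_51_P485499 for Irf3 (chr7:41178031-41178090), A_52_P354823 for Irf8 (chr8:119391398-119391457) and A_51_P127367 for Irf9 (chr14:50476767-50476826), each unbroken in the genome. Irf1, Irf3, Irf8 and Irf9 have a second, dimmer probe, which was fitted but not counted among the genes tested.

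Each array's values were set relative to its own 75th percentile of intensity, which lay between 1196 and 2583, and 50.3% to 55.7% of spots were well above background. A level is the log2 of that relative intensity; probes differ in how strongly they bind, so levels of different probes are not compared. Hnrnpa0, the target of the hairpin, was lower in shRNA cells than in control cells by the limma fit, with a log2 difference of -2.10 after 4-OHT (adjusted p = 0.00512) and -1.54 before it (adjusted p = 0.0127). Of 7 myeloid progenitor markers, 6 were well above background after 4-OHT and 5 before it in both vectors, and Cd34 was well above background on no array. Their sum was 54 to 69.6 times the 75th percentile in shRNA cells after 4-OHT, against 90.8 to 104 before it, and 55.7 to 75.8 in control cells after 4-OHT, against 94 to 105 before it. The 7 monocyte and macrophage markers summed to 57 to 72.3 times the 75th percentile in shRNA cells after 4-OHT, against 41.8 to 50.1 before it, and to 82.1 to 96.9 in control cells after 4-OHT, against 45.2 to 59.1 before it. Lyz2 and Cd14 made up most of this sum. Lyz2 was 37.8% to 48.7% of it in shRNA cells after 4-OHT, against 73.5% to 76.5% before it. In control cells Lyz2 was 36.6% to 48.3%, against 70.4% to 79.2%. Cd14 was 39.3% to 47.3% in shRNA cells after 4-OHT, against 21.8% to 24.5% before it. In control cells Cd14 was 39.2% to 45.1%, against 19.4% to 27.3%. After 4-OHT Adgre1 ran from 0.25% to 15% between shRNA arrays and from 0.27% to 17.7% between control arrays. The 7 plasmacytoid dendritic cell markers, a cell type rich in Irf7 and Irf8, summed to 13.2 to 14.2 in shRNA cells after 4-OHT and 12.5 to 13 before it, and to 15.4 to 18.6 in control cells after it and 13 to 14.1 before it. Bst2, which is also in the list of interferon-stimulated genes, made up 84.5% to 86.3% of this sum in shRNA cells after 4-OHT and 70.2% to 72.2% before it, and 88% to 90.9% in control cells after it and 75.6% to 77.7% before it. Siglech, the defining surface lectin of plasmacytoid dendritic cells, was well above background on 1 array. Summed B cell, T cell and NK cell markers stayed at or below 0.36 in every group. The part of these shifts in the results below was not tested, and with RNA from whole cultures more cells of a type and more RNA per cell cannot be told apart.

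Irf7, Irf8 and Irf9 rose under 4-OHT in both vectors, each by between 2.12-fold and 3.03-fold, while Irf1, Irf2 and Irf3 did not pass the test in either. Some changes were smaller with another background correction or probe rule, and these values are given with each gene. That is 3 of 6 tested members higher and 0 lower in shRNA cells, where 16.5% of all genes tested were higher and 21.8% lower (38.3% in either direction). The counts in control cells were also 3 and 0, where 17.4% of all genes were higher and 23% lower (40.5% in either direction). A gene counts as past the threshold at an adjusted p under 0.05 (limma, Benjamini-Hochberg over 15061 genes). The median log2 change of the 6 members was 0.57 in shRNA cells and 0.69 in control cells, beside -0.076 and -0.068 over all genes.

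Irf7, the interferon-inducible regulator of type I interferon genes, was higher after 4-OHT in both vectors. In shRNA cells Irf7 read -3.08, -2.94 and -2.80 (log2 level, replicates A, B and C) after 4-OHT, against -3.94, -4.33 and -4.42 before it. In control cells it read -3.04, -3.27 and -2.99 after 4-OHT, against -4.17, -4.77 and -5.17 before it. All 6 arrays after 4-OHT lay above all 6 before it, and the widest spread was among the control arrays before 4-OHT, where only replicate A was well above background. The means were -2.94 ± 0.14 in shRNA cells after 4-OHT and -4.23 ± 0.25 before it, and -3.10 ± 0.15 in control cells after it and -4.70 ± 0.50 before it (SD, n = 3). In the order of these levels only the step between the times was free of overlap. The log2 change was 1.29 in shRNA cells (SE 0.22, adjusted p = 0.000984) and 1.60 in control cells (SE 0.22, adjusted p = 0.000202), or 2.45-fold and 3.03-fold. The value in control cells is set against a group with 1 of 3 arrays well above background. With normexp background correction the Irf7 change was 0.80 in shRNA cells and 0.87 in control cells, both past the threshold. Each vector had 1 slide that holds both times, with a single array for 1 of them that takes its spread from the rest. Within it the change was 1.49 in shRNA cells (slide 3, 3 arrays after and 1 before, adjusted p = 0.00973) and 1.66 in control cells (slide 1, 1 array after and 3 before, adjusted p = 0.0735). With these 4 arrays the call in control cells was lost, and the value stayed close to that over all arrays.

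Irf8, the monocyte factor that binds DNA with PU.1, was higher after 4-OHT in both vectors by both of its probes. In shRNA cells Irf8 read -2.22, -2.17 and -2.06 (log2 level, replicates A, B and C) after 4-OHT, against -3.71, -3.56 and -3.83 before it. In control cells it read -2.28, -2.22 and -2.13 after 4-OHT, against -3.43, -3.39 and -3.49 before it. The arrays after 4-OHT again stood clear of those before it, and within each group the 3 arrays lay close together. The means were -2.15 ± 0.086 in shRNA cells after 4-OHT and -3.70 ± 0.14 before it, and -2.21 ± 0.071 in control cells after it and -3.44 ± 0.055 before it (SD, n = 3). The shRNA arrays before 4-OHT were the lowest group, clear of the control arrays before it. The log2 change was 1.55 in shRNA cells (SE 0.082, adjusted p = 1.74e-07) and 1.23 in control cells (SE 0.082, adjusted p = 8.06e-07), or 2.93-fold and 2.34-fold. It was 1.04 and 0.87 with normexp background correction and 1.01 and 0.95 with the mean of both probes, past the threshold in each vector. Within a slide the change was 1.68 and 1.16, both past the threshold. The dimmer Irf8 probe (A_51_P187253) read -4.05, -4.04 and -4.08 in shRNA cells after 4-OHT, against -5.15, -4.00 and -4.46 before it, and -4.54, -3.97 and -4.69 in control cells after it, against -5.27, -4.94 and -4.99 before it. It was well above background on 2 of 3 shRNA arrays and 0 of 3 control arrays before 4-OHT, so the difference in control cells was at least 1.2-fold. In shRNA cells, where the groups overlapped, the log2 change of 0.47 had a 95% interval of -0.11 to 1.06. Both probes lay higher after 4-OHT on average in both vectors, and the brighter one carries the larger and tighter difference.

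Irf9, the DNA-binding subunit of ISGF3, changed with the least spread of the 3. In shRNA cells Irf9 read -0.59, -0.67 and -0.63 (log2 level, replicates A, B and C) after 4-OHT, against -1.81, -1.76 and -1.58 before it. In control cells it read -0.58, -0.59 and -0.53 after 4-OHT, against -1.96, -1.78 and -1.86 before it. The 6 arrays after 4-OHT lay within a narrow band above all 6 arrays before it. The means were -0.63 ± 0.044 in shRNA cells after 4-OHT and -1.72 ± 0.12 before it, and -0.57 ± 0.031 in control cells after it and -1.87 ± 0.091 before it (SD, n = 3), and the vectors overlapped both after and before 4-OHT. The log2 change was 1.09 in shRNA cells (SE 0.074, adjusted p = 1.15e-06) and 1.30 in control cells (SE 0.074, adjusted p = 2.39e-07), or 2.12-fold and 2.46-fold. With the mean of both probes it was 0.76 in shRNA cells and 1.12 in control cells, both past the threshold. On single slides the change was 0.95 and 1.29, both past the threshold. The dimmer, intron-bridging Irf9 probe read -4.14, -4.76 and -4.51 in shRNA cells after 4-OHT, against -5.32, -4.89 and -4.49 before it, and -4.09, -3.95 and -4.37 in control cells after it, against -5.00, -5.26 and -4.94 before it. It was well above background on 1 of 3 shRNA arrays and 0 of 3 control arrays before 4-OHT; in control cells the difference was at least 1.44-fold. In shRNA cells the groups overlapped, and the log2 change of 0.43 had a 95% interval of -0.053 to 0.92. Both Irf9 probes had positive changes in both vectors.

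**Figure D1:**
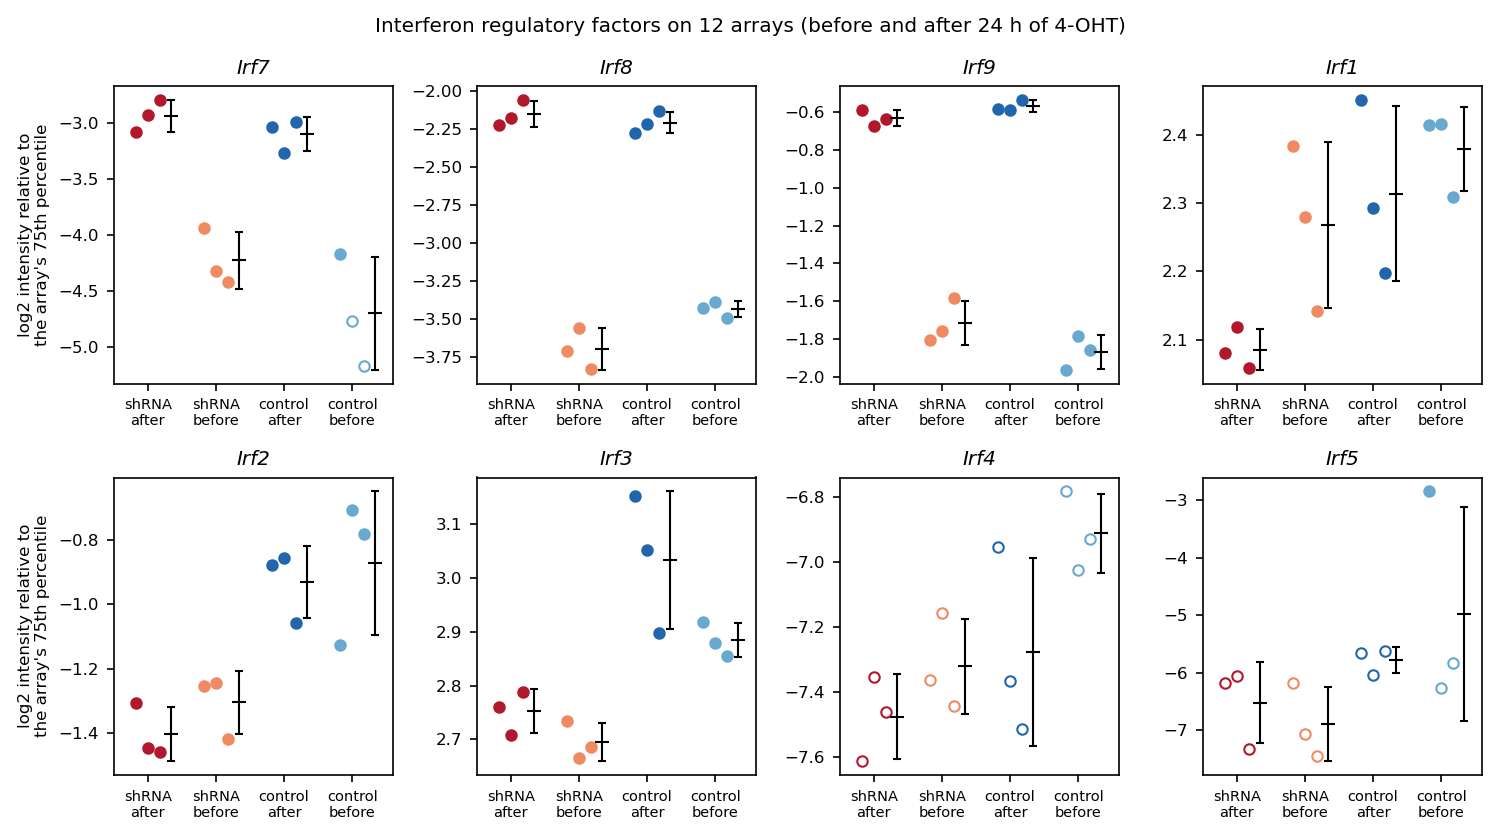
Level of each member on every array (vertical axis, log2 intensity relative to the array's 75th percentile; horizontal axis, the 4 groups). Points are arrays A, B and C from left to right, open where the probe was not well above background, and black bars are the mean with SD of 3 arrays. Each panel has its own scale, since levels of different probes are not comparable. Irf7, Irf8 and Irf9 separate by 4-OHT, Irf2 and the tested Irf3 probe separate by vector, and Irf4 and Irf5 sit near background except for 1 Irf5 array.

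Irf1, Irf2 and Irf3 differed little between the times, and none passed the test. Irf1, the interferon-induced activator, read 2.08, 2.12 and 2.06 in shRNA cells after 4-OHT, against 2.38, 2.28 and 2.14 before it, and 2.45, 2.29 and 2.20 in control cells after it, against 2.41, 2.42 and 2.31 before it. The 3 shRNA arrays after 4-OHT were the lowest of the 12, and the control groups overlapped. The log2 change of -0.18 in shRNA cells (95% interval -0.37 to 0.0026, adjusted p = 0.11) and that of -0.065 in control cells (-0.25 to 0.12, adjusted p = 0.574) did not pass. Without replicate C of the shRNA cells before 4-OHT, the only one of them on slide 3, the Irf1 difference in shRNA cells was -0.25 with adjusted p = 0.0446; its dimmer probe gave -0.13 (-0.42 to 0.15).

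Irf2, the competitor of Irf1, changed by -0.099 (log2, 95% interval -0.35 to 0.15) in shRNA cells and -0.058 (-0.31 to 0.19) in control cells, with adjusted p = 0.513 and 0.717. Irf3, the widely expressed sensor-activated factor, changed by 0.057 (95% interval -0.098 to 0.21, adjusted p = 0.541) in shRNA cells and 0.15 (-0.0061 to 0.31, adjusted p = 0.118) in control cells. Among these the call for Irf3 in control cells was the most open to the processing: it passed in 4 of 24 other settings, with log2 values of up to 0.27, and its dimmer probe gave 0.22 (-0.003 to 0.43). The intervals of the tested probes of all 3 genes leave room for changes of up to 0.37 on the log2 scale. Those of the dimmer Irf1 and Irf3 probes leave room for up to 0.43. None of these reaches the size seen with the tested probes of Irf7, Irf8 or Irf9.

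Irf4 and Irf5 were at the limit of detection. The Irf4 probe was well above background on 0 of 12 arrays, with intensities between 9 and 15.8 units. The Irf5 probe was well above background on 1 array, control replicate A before 4-OHT, at 167 units, against 8.98 to 41.5 on the other 11. Replicates B and C of the same group read like the other arrays, so no difference between groups is drawn from this probe. A dim probe does not show that a transcript is absent.

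**Figure D2:**
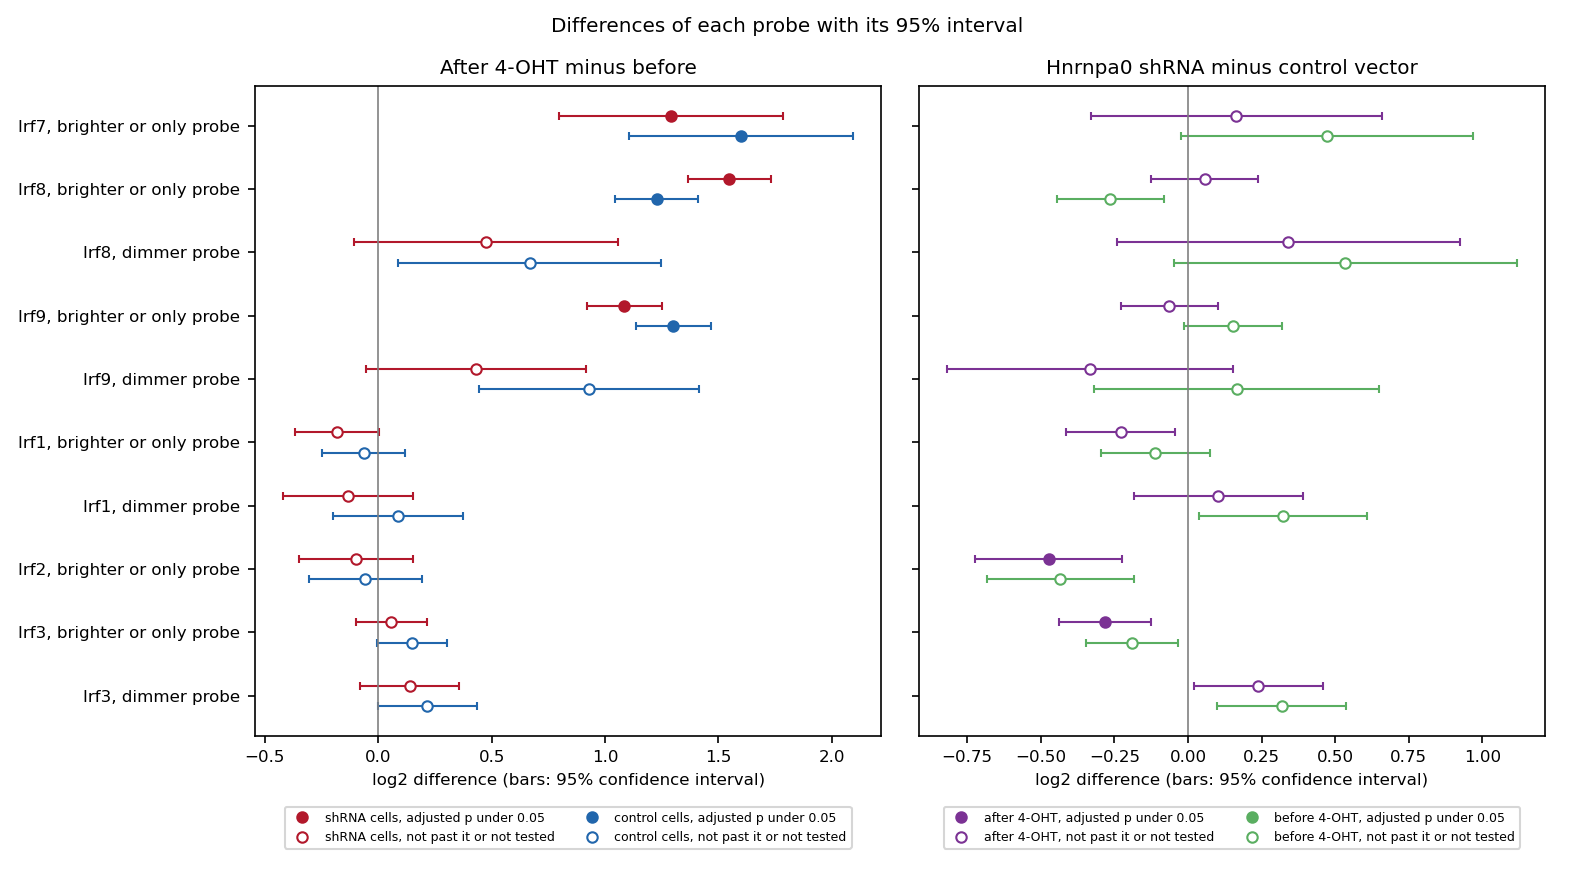
Log2 difference of each probe of the 6 tested members with its 95% confidence interval (horizontal axis) for 4-OHT within each vector (left) and for shRNA minus control (right). Filled points are tested probes with an adjusted p under 0.05; dimmer probes were not among the genes tested and are open. On the left Irf7, Irf8 and Irf9 lie to the right of 0 in both vectors; on the right only the Irf2 and the brighter Irf3 probe after 4-OHT are filled, and the 2 Irf3 probes lie on opposite sides of 0.

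Between vectors, Irf2 and the brighter, tested Irf3 probe were lower in shRNA cells than in control cells after 4-OHT, and no member passed the test before it. The dimmer Irf3 probe was higher by 0.24 (log2) after 4-OHT, so no direction is drawn for Irf3 as a gene. After 4-OHT 2 of 6 tested members were lower and 0 higher, where 8.82% of all genes were lower and 16.7% differed in either direction; before 4-OHT 0.378% of all genes differed. The median log2 difference of the members was -0.15 after 4-OHT and -0.15 before it, beside -0.038 and -0.029 over all genes. The vectors shared no slide within a treatment, and the calls for Irf2 and Irf3 were lost when slide was a term of the fit. Of all genes, only 1 passed after 4-OHT with slide as a fixed block and 0 with slide as a random block, against 2512 without slide. The loss is therefore not particular to Irf2 and Irf3. The 1 gene that passed with the fixed block was higher in shRNA cells. The lower level of Hnrnpa0, the target of the hairpin, was thus called with neither block. Of all genes, 1183 of 2512 called after 4-OHT were higher in shRNA cells, against 537 of 1744 with normexp background correction, 598 of 1696 with quantile normalisation and 246 of 900 with the percentile taken without outlier spots. The balance of directions thus depends on the scaling, and the differences of Irf2 and of the tested Irf3 probe were negative under each of these.

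Irf2 read -1.30, -1.45 and -1.46 in shRNA cells after 4-OHT, against -0.88, -0.85 and -1.06 in control cells after it. Before 4-OHT it read -1.25, -1.24 and -1.42 in shRNA cells, against -1.13, -0.71 and -0.78 in control cells. All 6 shRNA arrays lay below all 6 control arrays, with control replicate A before 4-OHT the nearest to them. The log2 difference was -0.47 after 4-OHT (SE 0.11, adjusted p = 0.0243) and -0.43 before it (SE 0.11, adjusted p = 0.0847); before 4-OHT it passed only when the variance was fitted with an intensity trend (adjusted p = 0.0422). With slide fitted as a fixed term, the value after 4-OHT was -0.28 (adjusted p = 0.859), with slide as a random block -0.41 (adjusted p = 0.23). It also missed the threshold without shRNA replicate B (adjusted p = 0.0735) or C (0.0744) or control replicate A (0.0603) or B (0.078) after 4-OHT. Its sign was negative in all 24 settings, which ran from -0.54 to -0.28.

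Irf3 read 2.76, 2.71 and 2.79 in shRNA cells after 4-OHT, against 3.15, 3.05 and 2.90 in control cells after it, and 2.73, 2.66 and 2.69 in shRNA cells before it, against 2.92, 2.88 and 2.86 in control cells before it. The 6 shRNA arrays were again below the 6 control arrays. The log2 difference was -0.28 after 4-OHT (SE 0.07, adjusted p = 0.0278), and -0.19 before it (SE 0.07, adjusted p = 0.161). The dimmer Irf3 probe (A_52_P609770, chr7:41173735-41173794, designed on another transcript record) went the other way, with 0.24 after 4-OHT (95% interval 0.02 to 0.46) and 0.32 before it (0.099 to 0.54), and none of its shRNA and control arrays overlapped within a treatment. The 2 probes therefore disagree on the direction, and with the mean of both the difference after 4-OHT was -0.021 (adjusted p = 0.844). With slide as a fixed block the brighter probe gave -0.21 (adjusted p = 0.813), with a random block -0.27 (0.193). It missed the threshold without shRNA replicate A (adjusted p = 0.061), B (0.0866) or C (0.0646) or control replicate A (0.0594) or B (0.0833) after 4-OHT.

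**Figure D3:**
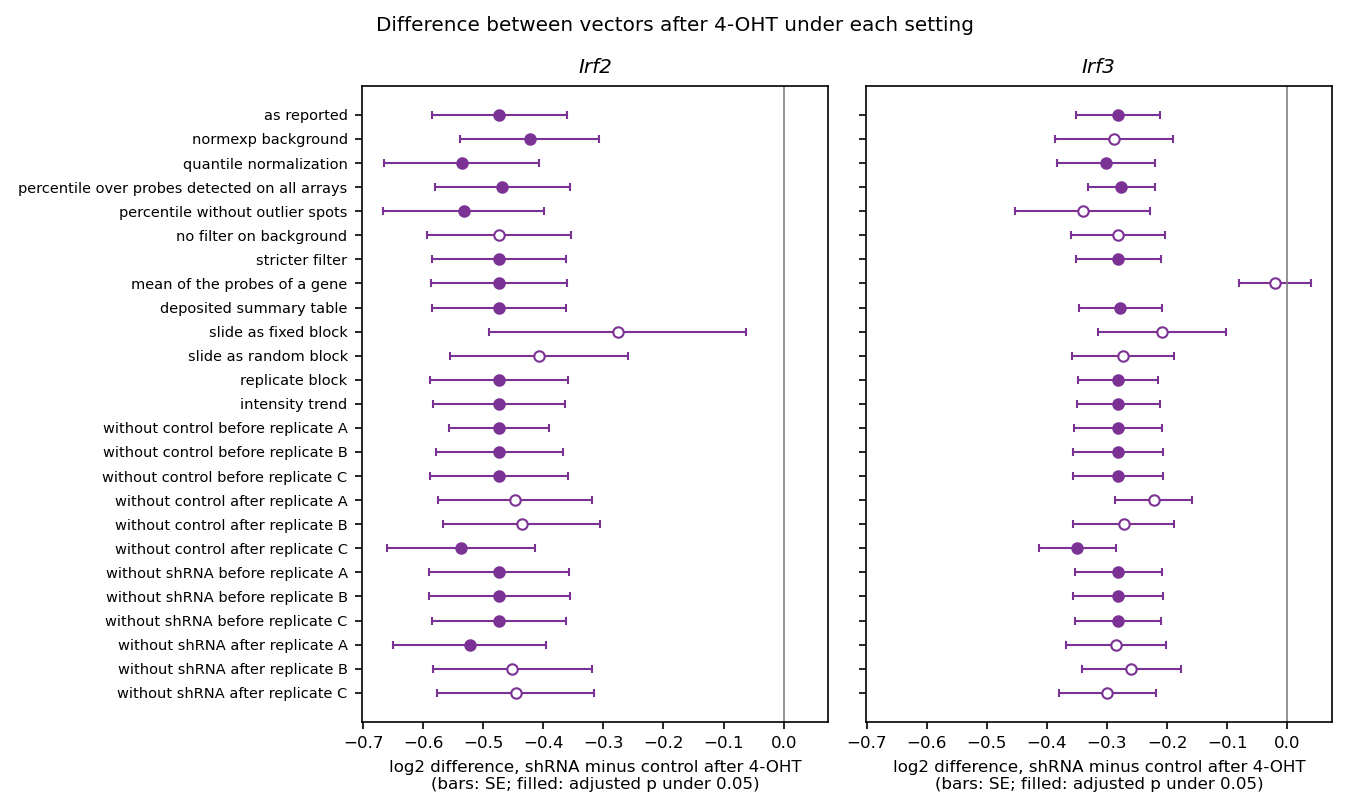
Difference between shRNA and control cells after 4-OHT in Irf2 (left) and in the tested Irf3 probe (right) under each setting (rows), as log2 difference with SE; filled points have an adjusted p under 0.05. Irf2 ran from -0.54 to -0.28 and was filled in 17 of 24 settings other than the reported one, and Irf3 ran from -0.35 to -0.021 and was filled in 13 of 24.

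Irf1 was -0.23 lower on the log2 scale in shRNA cells after 4-OHT by its tested probe (95% interval -0.41 to -0.044, adjusted p = 0.0836) and -0.11 before it (-0.30 to 0.074). Its dimmer probe gave 0.10 (-0.18 to 0.39) and 0.32 (0.036 to 0.61). The Irf1 probes too had opposite signs, and neither was called. Irf8 differed by 0.057 after 4-OHT (95% interval -0.13 to 0.24, adjusted p = 0.657) and by -0.26 before it (-0.45 to -0.081, adjusted p = 0.118). By the tested Irf8 probe the 3 shRNA arrays before 4-OHT lay below the 3 control arrays, and after it the groups overlapped. The dimmer Irf8 probe gave 0.34 (-0.24 to 0.92) after 4-OHT and 0.53 (-0.048 to 1.12) before it, with overlapping groups. Before 4-OHT it was well above background on 0 of 3 control arrays. The Irf8 probes thus had opposite signs before 4-OHT, and no direction is drawn for Irf8 as a gene. Irf7 differed by 0.16 after 4-OHT (-0.33 to 0.66) and by 0.47 before it (-0.023 to 0.97). Irf9 differed by -0.063 (-0.23 to 0.10) and 0.15 (-0.012 to 0.32). Where the arrays of the vectors did not overlap, as for Irf1, Irf2 and Irf3 after 4-OHT and Irf2, Irf3 and Irf8 before it, the same held for 38.6% of all genes after 4-OHT and 32.5% before it. Under 4-OHT itself 51.5% of genes did not overlap in shRNA cells and 51% in control cells.

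Whether the response to 4-OHT differed between vectors was tested as the difference between the responses, shRNA minus control. No member passed, and 0% of all genes did by limma (0 of 15061, with 789 at an unadjusted p under 0.05). By its tested probe the estimate for Irf8 was 0.32 (95% interval 0.063 to 0.58, unadjusted p = 0.0197, adjusted p = 0.908). By that probe the level was lower in shRNA than in control cells before 4-OHT, and levels overlapped after it. The dimmer Irf8 probe, well above background on 0 of 3 control arrays before 4-OHT, gave the opposite sign, -0.19 (-1.02 to 0.63). For Irf7 the estimate was -0.31 (-1.01 to 0.39) and for Irf9 -0.22 (-0.45 to 0.017). For Irf1, Irf2 and Irf3 it was -0.12, -0.04 and -0.092. These intervals do not show that the vectors respond alike.

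The level patterns of the 3 responding members across the 12 arrays were set beside those of other genes by Pearson's r. Genes without a value on all 12 arrays, or whose level varied much less than the member's, were left out of the ranking. That left 4334 genes for Irf8, 5493 for Irf9 and 3680 for Irf7. The arrays fall into those before and after 4-OHT, so any gene that changes with 4-OHT scores high, and the values are descriptions. Closest to Irf8 were Mertk (r = 0.994), Siglec1 (r = 0.993) and Apbb1ip (r = 0.993); Mertk is a receptor for apoptotic cell uptake and Siglec1 the macrophage sialoadhesin. Closest to Irf9 were Dock4 (r = 0.997), Ifi204 (r = 0.996) and Evi2a (r = 0.996); Ifi204 is an interferon-inducible DNA-binding protein of myeloid cells. Closest to Irf7 were Gadd45g (r = 0.973), Slc9a3r1 (r = 0.972) and St14 (r = 0.967); Gadd45g is a stress and differentiation gene and St14 a membrane protease. Among the members themselves, r was 0.958 for Irf8 with Irf9, 0.91 for Irf7 with Irf9 and 0.893 for Irf7 with Irf8.

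The genes around the members were read from 10 lists by role. Of all genes tested, 16.5% rose and 21.8% fell in shRNA cells, and 17.4% rose and 23% fell in control cells, and each list's count stands beside these shares. Of 10 tested genes of interferons, their receptors and Janus kinases, 5 rose, 1 fell and 4 did not pass in shRNA cells, with the same counts in control cells (median log2 0.65 in shRNA cells and 0.58 in control cells). Ifngr2, the signalling chain of the interferon gamma receptor, rose 3.51-fold in each vector (log2 SE 0.081 in both), and its kinase Jak2 3.3-fold in shRNA cells and 3.38-fold in control cells. Ifnar1 and Ifnar2, the type I interferon receptor, rose by 1.07 and 0.99 (log2) in shRNA cells and by 1.26 and 1.00 in control cells. Both receptor chains are named after their values were seen. Ifnlr1, the lambda receptor chain, fell by 1.62 and 1.93. Of the interferon genes themselves, Ifnb1, Ifna2, Ifna4, Ifng and Ifnk were well above background on no array and were not tested. Ifna1, named after its values were seen, was tested and was well above background on 1 array of each group.

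Interferon-stimulated genes went both ways: of 21 tested, 9 rose, 5 fell and 7 did not pass in shRNA cells (median log2 0.12). In control cells the counts were 9 higher, 6 lower and 6 not past the threshold (median log2 0.19). Samhd1, a nucleotide-degrading restriction factor, rose 19.7-fold in shRNA cells (log2 4.30, SE 0.16) and 19.8-fold in control cells (log2 4.31, SE 0.16), and Gbp2, a guanylate-binding protein, 4.16-fold and 5-fold. Isg20, an exonuclease, fell 3.67-fold and 3.25-fold, and Gbp3, of the same family as Gbp2, 1.85-fold and 2.1-fold. Ifit2 and Ifit3, classic targets of Irf3 and ISGF3, fell too, Ifit2 by 0.73 and Ifit3 by 0.84 on the log2 scale in shRNA cells and by 0.87 and 0.80 in control cells. The list's other 16 genes were not tested; 13 of them, among them Mx1, Oas1a and Oas2, were well above background on no array, and 1 is not on the array. Stat2, the ISGF3 partner of Irf9, rose by 0.57 (adjusted p = 0.0163) and 0.72 (adjusted p = 0.00441) in shRNA and control cells. It is named after its values were seen.

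Among 18 tested regulators of the family, 4 rose, 6 fell and 8 did not pass in shRNA cells. In control cells the counts were 4 higher, 5 lower and 9 not past the threshold (median log2 -0.08 in shRNA cells and -0.072 in control cells). Usp18, the interferon-induced protease that damps type I interferon signalling, rose 6.13-fold in shRNA cells (log2 2.61, SE 0.19) and 8.86-fold in control cells (log2 3.15, SE 0.19), where 1 of 3 arrays before 4-OHT was well above background. Ptpn6, a phosphatase that damps cytokine signalling, rose 3.1-fold and 2.94-fold, and Socs3, a suppressor of cytokine signalling, fell 2.12-fold and 1.81-fold. Irf2bp2, a corepressor that binds Irf2, fell 1.7-fold in shRNA cells and 1.72-fold in control cells, and after 4-OHT it was lower in shRNA than in control cells (log2 -0.53, SE 0.11, adjusted p = 0.0196).

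Of 26 tested sensors, adaptors and kinases upstream of Irf3, Irf5 and Irf7, 11 rose, 7 fell and 8 did not pass in shRNA cells. In control cells the counts were 9 higher, 5 lower and 12 not past the threshold (median log2 -0.038 in shRNA cells and -0.086 in control cells). Tlr8, an endosomal RNA sensor, rose at least 6.51-fold in shRNA cells and at least 5.42-fold in control cells, and Sting1, the adaptor of cytosolic DNA sensing, 4.79-fold and 5.52-fold. Ikbke, a kinase that phosphorylates Irf3 and Irf7, fell 3.19-fold and 4.25-fold; after 4-OHT it was higher in shRNA than in control cells (log2 0.59, adjusted p = 0.0207). Of 17 tested DNA-binding partners, 5 rose, 4 fell and 8 did not pass in shRNA cells. In control cells the counts were 6 higher, 3 lower and 8 not past the threshold (median log2 0.072 in shRNA cells and 0.10 in control cells). Batf, a partner of Irf4 and Irf8 on AP-1 composite sites, rose 2.13-fold and 2.49-fold. Spi1, the gene of PU.1, fell by 0.42 and 0.59 (log2); whether its probe reads the fusion transcript was not tested.

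Genes reported to be bound or activated by Irf8 with PU.1 were mostly higher after 4-OHT: of 20 tested, 12 rose, 2 fell and 6 did not pass in shRNA cells. In control cells the counts were 14 higher, 2 lower and 4 not past the threshold. Their median log2 change was 2.20 and 2.41, or 2.03 and 1.86 with genes below background in a group at their bound and genes with no usable fold left out. For 5 of the 20 in shRNA cells and 6 in control cells the change is only such a bound, and such a gene passed the filter on dim probes through the arrays where it is high, so the count is a description. Fcgr1, the high-affinity Fc receptor, rose at least 24.8-fold in shRNA cells and at least 21.6-fold in control cells, and Cx3cr1, the fractalkine receptor, at least 31.3-fold and at least 27.3-fold. Il12a, a chain of interleukin 12, fell 1.71-fold and 1.92-fold. Il18, a cytokine that induces interferon gamma, rose 51.1-fold and 61.4-fold. Klf4, Prdm1 and Il12b of the same list were well above background on no array. Of the list's 23 genes, 3 are also among the macrophage markers (Cd68, Csf1r and Mpeg1) and 4 in another list (Il12a, Il12b, Il1b and Tlr4), and PU.1 acts on many of them without Irf8. The summed macrophage markers were higher in the same groups, with a larger share from Cd14 and a smaller share from Lyz2 than before 4-OHT. How much of the change goes with Irf8 was not tested.

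Of 10 tested genes reported as limited by Irf8, 1 rose, 7 fell and 2 did not pass in shRNA cells, with the same counts in control cells (median log2 -0.66 in shRNA cells and -0.63 in control cells). Gfi1, a repressor that favours granulocytes, fell 3.64-fold in shRNA cells and 5.42-fold in control cells, and the granule proteases Elane and Prtn3 fell 2.92-fold and 2.33-fold in shRNA cells and 3.42-fold and 2.77-fold in control cells. After 4-OHT Gfi1 was higher in shRNA than in control cells (log2 0.61, SE 0.072, adjusted p = 0.0074), as were Cebpa (0.31) and Csf3r (0.33), which act in granulocytes. These are 3 of the 10, where 7.85% of all genes were higher and 8.82% lower. Among the Irf8 and PU.1 targets, 4 of 20 were lower in shRNA than in control cells after 4-OHT (log2 -0.93 for Msr1, -0.46 for Tlr4, -0.39 for Il18 and -0.70 for Il1b, which was well above background on 1 of 3 shRNA and 3 of 3 control arrays) and 0 were higher, beside the same shares of all genes. Irf8 itself was at 0.057. In the other lists after 4-OHT, 3 of 10 interferon and receptor genes were higher in shRNA cells and 0 lower. The counts were 6 higher and 2 lower of 26 sensors and kinases, and 3 and 2 of 18 regulators. They were 2 and 3 of 21 interferon-stimulated genes, 0 and 2 of 17 partners, and 0 and 1 of 11 antigen presentation genes. Of 5 Irf5 targets 2 were lower and 0 higher, and of 4 Irf4 targets 0 differed. With slide in the fit, 1 of all genes (fixed) or 0 (random) passed between vectors after 4-OHT, against 2512 without it. No call of a list gene between vectors thus held with the random block, and at most 1 could with the fixed block.

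Antigen presentation genes with input from Irf1 and the class II transactivator went both ways: of 11 tested, 2 rose, 3 fell and 6 did not pass in shRNA cells, with the same counts in control cells (median log2 -0.13 in shRNA cells and 0.079 in control cells). Cd74, the class II invariant chain, rose 3.15-fold in shRNA cells and 4.63-fold in control cells, where 2 of 3 arrays before 4-OHT were well above background. H2-K1, a class I heavy chain, fell 1.52-fold and 1.37-fold, and Tap2, a peptide transporter, 1.37-fold and 1.35-fold. The class II chains H2-Ab1 and H2-Aa were well above background on no array. The class II chain H2-Eb1 and the transactivator Ciita were well above background on at most 2 arrays each, and none of these genes was tested. For Irf4 and Irf5, which stayed near background, target genes were read all the same. Of 5 tested inflammatory cytokine genes with Irf5 input, 1 rose, 3 fell and 1 did not pass in shRNA cells, and in control cells the counts were 1 higher, 2 lower and 2 not past the threshold. Among them Tnf rose 6.26-fold and 6.64-fold and the chemokine Ccl4 fell 2.39-fold and 2.13-fold. Of 4 tested genes of alternative activation with Irf4 input, 2 rose and 1 fell in each vector; Il1rn, the interleukin 1 receptor antagonist, rose 2.47-fold in each.

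**Figure D4:**
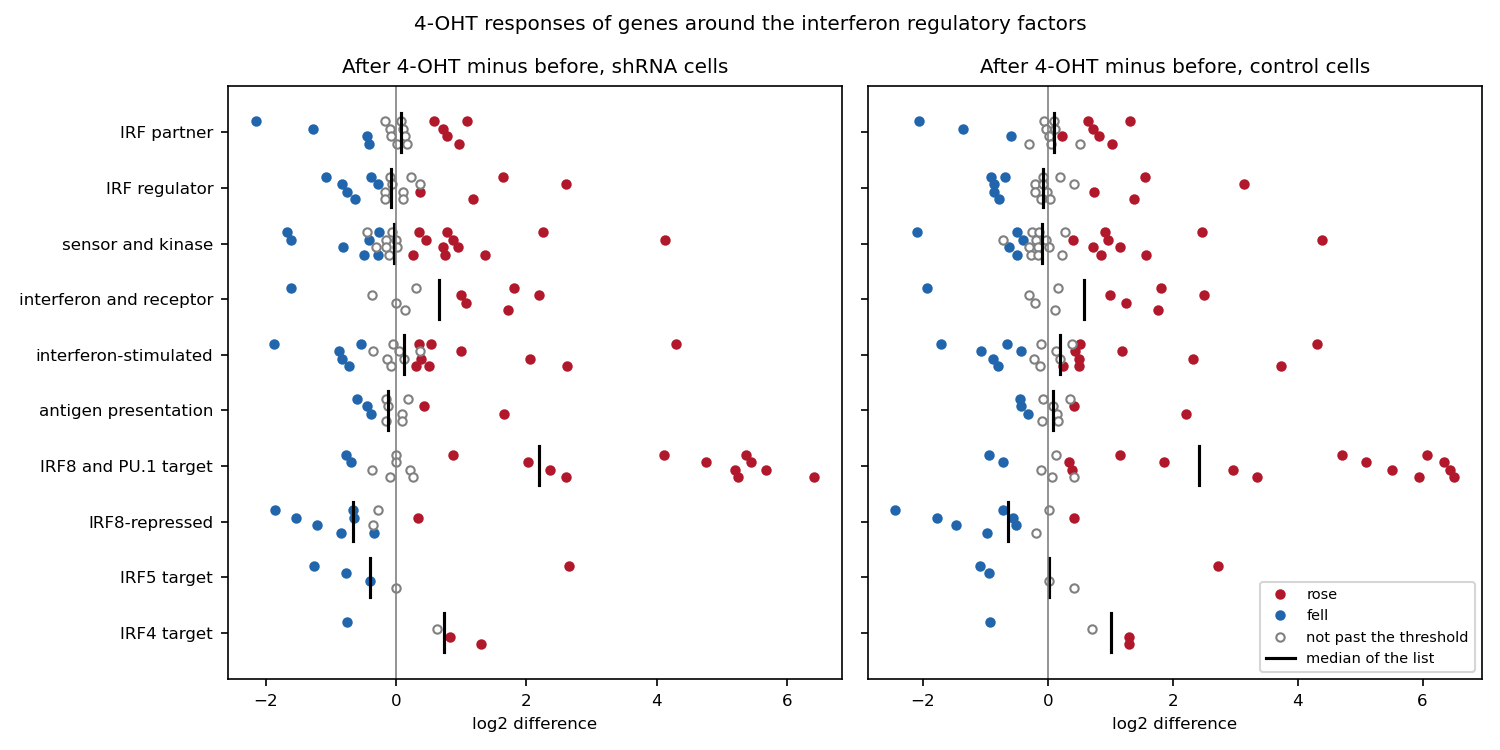
Log2 difference after minus before 4-OHT (horizontal axis) of every tested gene in the 10 lists around the family (rows), in shRNA cells (left) and control cells (right). Red points rose and blue points fell at an adjusted p under 0.05, grey open points did not pass, and black bars are list medians. The Irf8 and PU.1 targets reach the highest values, the genes limited by Irf8 lie mostly left of 0, and interferon-stimulated genes spread to both sides.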

How the data were processed

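RNA of 12 cultures was labelled with Cy3 and hybridised to 1-colour Agilent mouse arrays (design 014868), 4 on each of 3 slides. The deposited values are spot intensities: the authors read the scans with Agilent Feature Extraction 9.5 per the submitters' processing notes (9.5.3.1 per the file headers), which subtracts background and removes spatial trends. The deposited value table held the same intensities, within 0.5% of the scanner output, and was used as an alternative.

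The processed intensity of each array was divided by its 75th percentile over all spots other than controls and taken to log2. Outlier-flagged spots were left out, spots of one probe were averaged, and a gene was read with its brightest probe. Genes had to be well above background on at least 3 of 12 arrays and measured on at least 2 arrays per group. Of 41174 probes, 23082 were named through their transcript, 6582 by symbol, 3073 through an older symbol, and 8437 kept the file's name. A linear model with the 4 group means was fitted with limma 3.58.1 (R 4.3.3), with Benjamini-Hochberg adjustment over all genes tested and a threshold of 0.05; intervals are 95%. The arrays of all groups share 1 estimate of the spread, and their number limits the precision. A fold written "at least" sets the dim group, array by array, at the lowest signal that counted as well above background, or at its own signal where that was higher. The fit was tested on simulated data.

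Text names all members and their probes, up to 3 of the largest rises and falls per list among genes past the threshold whose groups do not overlap, up to 5 list genes between vectors, and the 3 genes closest to each responding member; other names are marked as chosen after their values were seen. The members and lists were chosen with earlier results of these data known. Alternatives changed the background correction, scaling, filter, probe rule, source of values, variance trend, and slide or replicate block, and left out each array in turn. Replicate letters were not taken as pairs. Some results are not reported here.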

Additional observations from a re-analysis of the deposited data

How the results depend on the processing

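The rises of Irf7, Irf8 and Irf9 under 4-OHT passed in each vector in all 24 alternatives that kept arrays of every slide; within slide 1 Irf7 in control cells did not (adjusted p = 0.0735), and no member difference past the threshold changed sign. The count of members that differed between vectors after 4-OHT, 2 as reported, was 1 with normexp background correction, 1 with the percentile taken without outlier spots (an alternative chosen after seeing the data), 1 with the mean of a gene's probes, 0 with no filter on background, 0 with slide as a fixed block and 0 with slide as a random block. Leaving out single arrays gave 0 to 2: it was 1 without shRNA replicate A after 4-OHT, and 0 without shRNA replicate B or C or control replicate A or B after it. The count before 4-OHT, 0 as reported, was 1 with an intensity trend (Irf2). Irf3 under 4-OHT in control cells passed with the percentile over detected probes (0.21, adjusted p = 0.0118), the mean of its probes (0.18, 0.0343), slide as a fixed block (0.27, 0.0331) and without control replicate C after 4-OHT (0.22, 0.0254); Irf1 between vectors after 4-OHT passed with the intensity trend (adjusted p = 0.0481). Of all genes, 2512 passed between vectors after 4-OHT, against 358 with no filter, 900 without outlier spots, 1 with slide fixed and 0 with slide random, and 308 to 3016 with 1 array left out (after 4-OHT, 1353, 603 and 499 without shRNA replicates A, B and C, and 1126 and 308 without control replicates A and B); before 4-OHT 57 passed, against 677 with the trend, 396 with quantile normalisation, 115 with a stricter filter, 20 with the mean of probes, 10 with no filter, 2 with normexp and 0 with slide fixed or random, and 0 to 496 with 1 array left out. The difference between the responses passed for 2 genes with slide fixed and for 1 each with the trend, without shRNA replicate C before 4-OHT and without control replicate C after it, none of them a member. The causes were not tested.

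The letters A, B and C were not taken as pairs, since deviations of same-letter arrays from their group means correlated at -0.087 to 0.30 over the 12 pairs, not all above 0.1. An array was closest to its own letter in 20 of 36 comparisons, a hint from the data and not from the design. With the replicate block, 5944 genes passed for 4-OHT in shRNA cells and 6245 in control cells (5769 and 6099 without it), 2751 between vectors after 4-OHT, 185 against 57 before it and 0 for the difference between responses; the members past the threshold were 3, 3, 3, 0 and 0, with Irf1 added after 4-OHT (adjusted p = 0.0452).

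Signal over background limits Irf4 and Irf5, and the control arrays of Irf7 before 4-OHT.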
